A study of Homo sapiens with 29 samples.

Results

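H460 is an established human line of large cell lung carcinoma, and the RNA described here came from H460 cells in which the transcription factor NRF2 was knocked down with a short hairpin RNA (shNRF2). They were set against H460 cells with a hairpin against GFP (shGFP), a jellyfish protein that the cells do not make, and both groups were sampled after 72 h of knockdown in 3 libraries each. These 6 libraries are part of a series of 29 samples, and 11649 of the 23710 genes in its table were tested because they reached 1 FPKM in at least 3 of the 6. FPKM, the unit of the deposited table, counts fragments per length of transcript and per sequencing depth, so levels of different genes can be set side by side. Of the other genes, 6232 were listed at 0 in all 6 libraries and 5829 lay above 0 but under the minimum. Further libraries of the series were used for comparison, namely 3 from H460 cells with a hairpin against the nuclear receptor NR0B1 (shNR0B1, 72 h), and 3 shNRF2 and 3 shGFP libraries from H2122, a lung adenocarcinoma line sampled after 24 h. The shNR0B1 libraries and 3 H460 libraries with a hairpin against SNW1 (shSNW1) also entered the fit behind every H460 p-value, where all 4 groups share an estimate of the spread. The hairpin sequences, the number used per target and their delivery are not stated in the labels. The labels do not say whether the 3 libraries of a group came from separate cultures, so the p-values measure the spread between libraries, which may be technical.

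NRF2, encoded by NFE2L2, is a transcription factor of the cap'n'collar family. It binds antioxidant response elements as a dimer with a small MAF protein and raises genes for glutathione and thioredoxin metabolism, detoxification, iron storage and NADPH supply. In unstressed cells KEAP1 brings NRF2 to the ubiquitin ligase CUL3 for degradation. H460 and H2122 carry KEAP1 mutations, and NRF2 is therefore known to be stable and active in them without added stress.

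The targeted transcript was lower in each knockdown library. NFE2L2 stood at 25.8, 26.8 and 27.9 FPKM in the shNRF2 libraries, against 44, 44.3 and 41.5 FPKM in the shGFP libraries, and the groups did not overlap. It fell by 0.67 ± 0.038 on the log2 scale (SE, limma, Benjamini-Hochberg adjusted p = 8.41e-10), so that a large part of the transcript was still measured after 72 h. NR0B1, which encodes an orphan nuclear receptor that acts as a corepressor, stood at 9.0, 8.82 and 9.35 FPKM in the shNRF2 libraries, against 48.9, 45.7 and 48.2 FPKM in the shGFP libraries. SNW1, a splicing and transcription coregulator, fell by 0.20 ± 0.0428 (SE). All log2 fold changes below are shNRF2 over shGFP, computed as log2(FPKM + 1), and the added 1 makes changes of weakly expressed genes look smaller than they are.

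Among the proteins that control NRF2, the changes went in both directions. Of 12 genes, 4 rose, 7 fell and RBX1, a subunit of the CUL3 ligase, had a log2 fold change of 0.01 (limma, Benjamini-Hochberg adjusted p = 0.873). KEAP1 stood at 31.2, 29.5 and 30.5 FPKM in shNRF2 and at 32.3, 33.2 and 36.4 FPKM in shGFP, with a log2 fold change of -0.15 that was not called after rescaling to a common sum of FPKM. SQSTM1, an autophagy receptor that binds KEAP1, stood at 228, 220.2 and 224 FPKM in shNRF2 and at 329.7, 336 and 363 FPKM in shGFP. NFE2L1, the factor most like NRF2 in this family, stood at 148, 143 and 138 FPKM in the shNRF2 libraries, against 72.1, 75.9 and 79.9 FPKM in the shGFP libraries. NFE2L1 thus rose (log2 fold change 0.91), while NFE2L3, another relative, fell by 0.76. The small MAF partners differed, with MAFK at 0.28, MAFG at -0.21 and MAFF at -1.04, but MAFF met the minimum only in the shGFP libraries. BACH1, a repressor that competes for the same elements, had 0.18.

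Most genes changed at the threshold used. Of the 11649 genes tested, 9402 (80.7%) were called at an adjusted p under 0.05, with 4816 (41.3%) higher and 4586 (39.4%) lower, and the 3 shNRF2 libraries did not overlap the 3 shGFP libraries in 9388 genes (80.6%). Because calls were this common, changes of at least 2 fold were counted too: 733 genes (6.29%) rose and 663 (5.69%) fell by that much. These counts rest on the added 1: with a pseudocount of 0.1 they were 1133 higher and 874 lower, and with voom on recovered reads 1186 higher and 905 lower. The median log2 fold change over all genes tested was 0.02 and the median SE was 0.0543. The minimum was met only in shNRF2 libraries (3 of 3, with 0 of 3 shGFP) for 351 of the genes tested and only in shGFP libraries for 144. In the counts by gene group below, the share of a group that was called is to be read against these percentages.

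Enzymes that make and reduce glutathione fell, though the glutathione list as a whole was mixed. Of 27 tested members, 10 rose and 16 fell, 4 of them at least 2 fold, and the median log2 fold change was -0.28. GCLM, the modifier subunit of glutamate-cysteine ligase, which makes the precursor of glutathione, stood at 15.8, 17.5 and 18 FPKM in the shNRF2 libraries, against 43, 40.6 and 38.6 FPKM in the shGFP libraries. It fell by 1.21 ± 0.0495 (SE, limma, Benjamini-Hochberg adjusted p = 2.63e-11), and GCLC, the catalytic subunit, had -0.54. GSR, which reduces oxidised glutathione, stood at 55.9, 56.7 and 57.5 FPKM in shNRF2 and at 136, 136 and 130.2 FPKM in shGFP. CHAC1 and CHAC2, which break down glutathione, fell too, by 1.84 and 1.62, but CHAC1 met the minimum only in the shGFP libraries. GGT7, a member of the gamma-glutamyltransferase family, stood at 28.1, 24.7 and 25.7 FPKM in shNRF2 and at 8.77, 8.49 and 9.51 FPKM in shGFP, the largest rise on the list. SLC7A11, the cystine transporter and a well-known NRF2 target, was higher in all shNRF2 libraries, with 50.7, 54.7 and 53.9 FPKM in shNRF2 and 48.3, 49 and 42.3 FPKM in shGFP (log2 fold change 0.19, limma, Benjamini-Hochberg adjusted p = 0.00332).

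The thioredoxin system had its abundant cytosolic members among the genes that fell. Of 13 tested genes 3 rose and 9 fell, 3 of them at least 2 fold, and the levels of the list summed to between 3340.0 and 3366 FPKM in shNRF2, against 5289 to 5598 FPKM in shGFP. TXN, thioredoxin itself, stood at 545, 535 and 544 FPKM in the shNRF2 libraries, against 1240.2, 1129 and 1082 FPKM in the shGFP libraries. TXNRD1, its cytosolic reductase, stood at 210.2, 210.5 and 216 FPKM in shNRF2, against 519, 521 and 505 FPKM in shGFP, and had a log2 fold change of -1.27 ± 0.0273 (SE). SRXN1, sulfiredoxin, which repairs overoxidised peroxiredoxins, had the largest fall of the list at -1.38, and PRDX1, the peroxiredoxin with the highest level per length in shGFP, fell by 0.88. TXNRD2, the mitochondrial reductase, moved the other way, with 22.6, 20.2 and 22.1 FPKM in shNRF2 and 13.2, 11.6 and 13.8 FPKM in shGFP. TXNIP, a thioredoxin inhibitor, rose by 0.41 on the log2 scale.

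Most detoxification genes fell, but the most widely used marker among them did not. Of 30 tested genes 4 rose and 23 fell, 8 of them at least 2 fold, with a median log2 fold change of -0.68. ABCG2, a drug efflux pump, stood at 4.97, 5.07 and 4.85 FPKM in shNRF2 and at 22.5, 21.8 and 21 FPKM in shGFP, and fell by 1.93 ± 0.0371 (SE, limma, Benjamini-Hochberg adjusted p = 3.15e-14). PTGR1, which reduces unsaturated ketones and aldehydes, stood at 64.1, 62.7 and 68.1 FPKM in shNRF2, against 199, 196 and 197 FPKM in shGFP. The aldo-keto reductases AKR1C2, AKR1C3 and AKR1C1 had -1.6, -1.35 and -1.08, but they are near-identical copies whose reads the authors' counting could have shared. NQO1, the quinone reductase used most widely as a readout of NRF2 activity, was 1 of the 4 that rose. It stood at 1547, 1590.4 and 1577 FPKM in the shNRF2 libraries and at 1289, 1266 and 1245 FPKM in the shGFP libraries, higher in all 3 (log2 fold change 0.31 ± 0.0278 SE, limma, Benjamini-Hochberg adjusted p = 1.17e-07).

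Most iron and NADPH genes fell too. HMOX1, heme oxygenase, stood at 4.5, 4.58 and 5.86 FPKM in shNRF2 and at 15.4, 14.9 and 17.1 FPKM in shGFP. FTH1, the ferritin heavy chain, stood at 534, 555 and 568 FPKM in shNRF2 and at 1381, 1352 and 1352 FPKM in shGFP, and the light chain FTL had -1.27. Both chains have many processed pseudogenes, so their counts are uncertain. TFRC, the transferrin receptor through which cells take up iron, fell by 0.98, whereas SLC39A14, another importer of iron, rose by 0.49 on the log2 scale. Of 16 heme and iron genes 4 rose and 11 fell. Of 15 genes that supply NADPH 2 rose and 11 fell, led by IDH2, the mitochondrial isocitrate dehydrogenase, with 12.8, 14.1 and 13.8 FPKM in shNRF2 and 36.1, 35.6 and 38.9 FPKM in shGFP. RPIA, an isomerase of the pentose phosphate pathway, fell by 1.2 and the cytosolic malic enzyme ME1 by 0.93. NNT, which makes NADPH in the inner mitochondrial membrane, rose by 0.68 on the log2 scale.

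**Figure D1:**
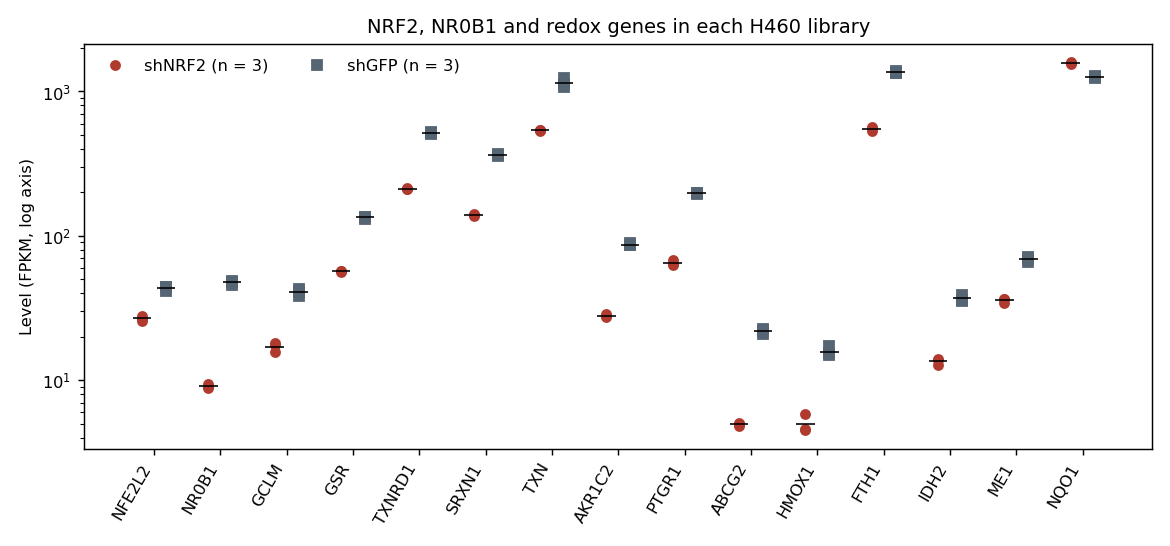
Level of NFE2L2, NR0B1 and redox genes in each H460 library, in FPKM on a log axis, with shNRF2 libraries as circles left of the shGFP libraries as squares and a line at each mean. The genes drawn are a selection, and other redox genes that rose, such as GGT7, SLC7A11, TXNRD2 and NNT, are not drawn. In the genes drawn the 3 shNRF2 libraries lie apart from the 3 shGFP libraries, below them except in NQO1. There they lie between 1547 and 1590.4 FPKM, against 1245 to 1289 FPKM.

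Promoters of the genes that fell were searched for the core of the antioxidant response element, because this is the site NRF2 binds. The letters searched were TGACNNNGC on both strands, within 250 bases before and 50 after the gene start in RefSeq's GRCh38.p14 promoters, and overlapping matches to other motifs were not removed. Of 77 genes of the redox lists that fell, 64 matched a promoter by symbol, and 13 of these (20.3%) held the core. It was held by 13.6% of all 27305 promoters in the table and by 16.5% of the 79 matched genes of the mitosis and DNA replication lists. With an A required after these letters the shares were 6.25% (4 of 64), 3.26% and 1.27% (1 of 79). The core was also held by 15.0% of the matched genes that fell, 15.5% of those that rose and 16.3% of those not called, and by 3 of 27 matched redox genes that were not called lower (11.1%). Of these 4 sets 75.8%, 73.8%, 69.6% and 75.0% matched a promoter, so the shares leave out the rest. The first 3 sets held 3476, 3555 and 1563 matched genes, and their shares lie above the 13.6% of all promoters. With the A required, the shares of the 4 sets were 2.76%, 2.62%, 3.33% and 3.7% (1 of 27). No difference between any of the shares was tested. Windows around the core are shown, 5′ to 3′ on the gene's strand with the core in capitals, for GCLM, TXNRD1 and ME1, which fell strongly, and for GSTP1, a glutathione S-transferase that fell less. GCLM lies on chromosome 1 (chr1:93909431-93909489, minus strand, core read as its reverse complement), TXNRD1 on chromosome 12 (chr12:104215655-104215713, plus strand), ME1 on chromosome 6 (chr6:83431155-83431213, minus strand) and GSTP1 on chromosome 11 (chr11:67583721-67583779, plus strand), and all 4 windows lie upstream of the annotated start.
GCLM: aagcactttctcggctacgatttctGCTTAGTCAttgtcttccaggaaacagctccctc
TXNRD1: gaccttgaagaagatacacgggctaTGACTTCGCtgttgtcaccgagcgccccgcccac
ME1: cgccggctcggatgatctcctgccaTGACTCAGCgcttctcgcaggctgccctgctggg
GSTP1: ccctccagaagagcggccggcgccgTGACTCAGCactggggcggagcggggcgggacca
ME1 and GSTP1 hold the same core letters, and their log2 fold changes were -0.93 and -0.39. Read along the strand of the core, an A follows it in GCLM and GSTP1 but not in TXNRD1 and ME1. GSTP1 stood at 418, 386 and 397 FPKM in shNRF2 and at 495, 499 and 580.0 FPKM in shGFP. A match describes the letters in the window and not an occupied site.

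Serine, folate and nucleotide synthesis fell almost throughout. Of 15 tested serine and folate genes 13 fell, 6 of them at least 2 fold, and 1 rose (median -0.95). MTHFD2, the mitochondrial folate enzyme that feeds purine synthesis, stood at 43, 42.4 and 43.9 FPKM in the shNRF2 libraries, against 161, 163 and 153 FPKM in the shGFP libraries. PHGDH, the first enzyme of serine synthesis, stood at 25.4, 24.6 and 26 FPKM in shNRF2 and at 69.4, 77.8 and 80.6 FPKM in shGFP, and PSAT1, the next enzyme, fell by 1.36. SHMT1, which splits serine in the cytosol, had -1.28. Purine synthesis had 14 of 15 genes lower, among them PRPS2 (-1.39), which makes the ribose donor, PAICS (-1.35) and PPAT (-1.14), and 1 higher, IMPDH1 (0.70), an enzyme of guanine nucleotide synthesis.

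Of 19 genes of pyrimidine and deoxynucleotide synthesis 14 fell and 4 rose. RRM2, the regulatory subunit of ribonucleotide reductase, stood at 31.2, 33.5 and 36 FPKM in shNRF2 and at 126, 128 and 119.8 FPKM in shGFP, and TYMS, thymidylate synthase, fell by 1.61. RRM1, the large reductase subunit, fell by 1.43. TK2, the mitochondrial thymidine kinase, stood at 10.2, 10.6 and 9.44 FPKM in shNRF2, against 2.99, 2.77 and 2.87 FPKM in shGFP, a rise of 1.51 ± 0.0528 on the log2 scale (SE, limma, Benjamini-Hochberg adjusted p = 5.2e-12).

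Genes of the ATF4 response, which is switched on by amino acid shortage and other stresses, fell more often than they rose. Of 18 tested members 12 fell, 7 of them at least 2 fold, and 5 rose (median -0.79). ATF4 itself stood at 119, 112 and 112 FPKM in shNRF2 and at 223, 231 and 244 FPKM in shGFP. TRIB3, a pseudokinase, stood at 16.6, 15.9 and 16.5 FPKM in shNRF2, against 46.1, 44.6 and 49.8 FPKM in shGFP, and GDF15, a secreted stress factor, fell by 1.44. DDIT4, an inhibitor of the growth kinase mTOR, fell by 1.26. VLDLR, a lipoprotein receptor, rose by 1.32 on the log2 scale and the transcription factor ATF5 by 0.70. Among 19 amino acid transporters 12 fell and 4 rose, of which only 1 or 2 rose when a single shNRF2 library was left out (17 tested) and 2 with a minimum of 5 FPKM, with the glutamate carrier SLC1A3 at -1.34 and the arginine carrier SLC7A1 at -1.05. The glycine carrier SLC6A9 had 1.33 and the glutamate carrier SLC1A1 1.11, but both met the minimum only in the shNRF2 libraries.

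The proliferation genes fell without exception in both lists tested. All 47 DNA replication genes fell, 38 of them at least 2 fold (median -1.33), and all 46 mitosis genes fell, 36 of them at least 2 fold (median -1.34). No member of either list had overlapping libraries, where 80.6% of all genes tested did not overlap. CDT1, which loads the replicative helicase, stood at 4.76, 5.51 and 5.39 FPKM in the shNRF2 libraries, against 23, 22.6 and 26 FPKM in the shGFP libraries. RFC4, a subunit of the clamp loader, stood at 8.68, 9.19 and 9.43 FPKM in shNRF2, against 40.1, 39.3 and 39 FPKM in shGFP. GINS1, a helicase subunit, and ORC1, of the origin recognition complex, had -1.99 and -1.98. MAD2L1, a spindle checkpoint protein, stood at 9.8, 12.2 and 11.6 FPKM in shNRF2 and at 69.7, 66.6 and 63 FPKM in shGFP, the largest fall of these lists (-2.47 ± 0.069 SE, limma, Benjamini-Hochberg adjusted p = 6.59e-13). PTTG1, securin, the mitotic kinase AURKB and the transcription factor MYBL2 had -1.86, -1.8 and -1.79. Of all genes tested 39.4% fell, and 5.69% fell at least 2 fold.

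Recombination repair went the same way, with 28 of 32 genes lower, 15 of them at least 2 fold, and 2 higher. EXO1, an exonuclease of DNA end resection, stood at 14.4, 14 and 15 FPKM in shNRF2 and at 101, 98.7 and 91.2 FPKM in shGFP. UBE2T, the conjugating enzyme of the Fanconi anemia pathway, and FANCD2, its substrate, fell by 1.82 and 1.63. FANCF, of the same pathway, had 0.15 and lost its call under median-ratio scaling.

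Regulators of entry into the cycle were more varied. Of 20 G1 and S genes 14 fell and 2 rose. E2F1, the transcription factor of S phase genes, stood at 5.14, 4.44 and 5.75 FPKM in shNRF2 and at 24.9, 25.5 and 25.5 FPKM in shGFP, and CDC25A, a phosphatase that activates cyclin-dependent kinases, stood at 5.1, 4.77 and 5.0 FPKM in shNRF2 and at 23.7, 23.4 and 23.2 FPKM in shGFP. CCND1, cyclin D1, had 32.3, 33.1 and 33.4 FPKM in shNRF2 and 34, 33.8 and 33.6 FPKM in shGFP and was not called (log2 fold change -0.04 ± 0.0384 SE, limma, Benjamini-Hochberg adjusted p = 0.4). Of the 5 cyclin-dependent kinase inhibitors and related genes tested, 4 rose. CDKN1A, p21, stood at 89.3, 80.1 and 81.8 FPKM in shNRF2 and at 46.4, 44.8 and 46.8 FPKM in shGFP, and CDKN1B, p27, stood at 29.9, 29.2 and 29.3 FPKM in shNRF2 and at 13.8, 13.3 and 12.7 FPKM in shGFP. CDKN2C and CDKN2D, inhibitors of CDK4 and CDK6, rose by 0.42 and 0.46 on the log2 scale. CDKN3, a phosphatase expressed in dividing cells, fell by 2.12.

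Clustered histone genes rose while replication genes fell. Their messages normally end without a poly(A) tail, and the libraries were made from polyadenylated RNA, so the counts hold only the tailed part. Of 15 tested genes 11 rose, 9 of them at least 2 fold, and 2 fell (median 1.18), but 15 of the 30 listed genes were under the minimum. Tested genes included 3 that met the minimum only through the shNRF2 libraries, so that they had to differ. With any 1 shNRF2 library left out 8 of 12 rose, and with a minimum of 5 FPKM 6 of 8 rose and 2 fell. HIST2H2BE stood at 7.64, 8.11 and 8.15 FPKM in the shNRF2 libraries, against 0.637, 0.826 and 0.55 FPKM in the shGFP libraries, and HIST1H2AC at 24.6, 21.4 and 22.5 FPKM in shNRF2, against 4.57, 3.54 and 5.65 FPKM in shGFP. H1F0, a histone that is not tied to replication, fell by 0.44. These genes are near copies of each other, and reads may have been shared between them.

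MYC, a transcription factor that drives ribosome and nucleotide genes, stood at 80.6, 79.5 and 83.3 FPKM in shNRF2 and at 152, 152 and 165 FPKM in shGFP (log2 fold change -0.94 ± 0.0371 SE). Its antagonists MXD4 and MXD1 rose by 1.62 and 1.16 on the log2 scale. Of 42 ribosome biogenesis genes 37 fell and 1 rose, with a median of -0.60. FBL, which methylates ribosomal RNA, stood at 57.8, 61.8 and 59.1 FPKM in shNRF2 and at 164, 168 and 178 FPKM in shGFP, and NPM1, nucleophosmin, stood at 528, 590.0 and 575 FPKM in shNRF2 and at 1379, 1462 and 1408 FPKM in shGFP. LYAR and TCOF1, both nucleolar proteins, fell by 1.5 and 1.11.

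The rest of the protein synthesis and folding machinery of the cytosol and mitochondria shifted down by less. Of 74 mitochondrial ribosomal protein genes 63 fell and 6 rose (median -0.48), led by MRPS30 at -1.12, while MRPL53 rose by 0.99 on the log2 scale. Of 76 cytosolic ribosomal protein genes 58 fell and 3 rose, none by 2 fold (median -0.26). The number that rose was 6 without shGFP replicate 3, and 9, with 49 lower, under a common sum of FPKM. RPS3A had the largest fall of these, -0.84, and their many pseudogenes make single values uncertain. Among 20 tRNA synthetases 17 fell and 1 rose, with WARS, for tryptophan, at 63.1, 62.4 and 60.9 FPKM in shNRF2 and 143, 149.6 and 155 FPKM in shGFP. Among 35 cytosolic and mitochondrial chaperones 28 fell and 3 rose. HSP90AA1, a major cytosolic chaperone, stood at 451, 479 and 482 FPKM in shNRF2 and at 1061, 1047 and 972 FPKM in shGFP, and FKBP4, its cochaperone, fell by 1.2. Of 38 proteasome genes 34 fell and 2 rose. PSMG1, an assembly chaperone, fell by 1.18. PSMD8, a lid subunit, was 1 of the 2 that rose, with 75.7, 68 and 69.2 FPKM in shNRF2 and 33.8, 33.9 and 36.3 FPKM in shGFP. Of 29 tubulin, actin and related genes 22 fell, 9 of them at least 2 fold, and 5 rose, led by TUBA4A (-1.76) and the microtubule destabiliser STMN1 (-1.41). MYH9, a non-muscle myosin, rose by 0.81 on the log2 scale.

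Chaperones of the endoplasmic reticulum (ER) rose, the opposite of those in the cytosol. Of 27 tested genes 25 rose, 4 of them at least 2 fold, and 1 fell (median 0.69). CALR, calreticulin, stood at 931, 959 and 907 FPKM in the shNRF2 libraries, against 385, 400.4 and 421 FPKM in the shGFP libraries. HSPA5, the main ER chaperone BiP, stood at 725, 742 and 724 FPKM in shNRF2 and at 350.3, 343 and 338 FPKM in shGFP, a rise of 1.08 ± 0.0272 on the log2 scale (SE, limma, Benjamini-Hochberg adjusted p = 2.79e-13). FKBP10, a collagen chaperone, rose by 1.05 on the same scale, and MANF, a secreted stress factor of the ER, was the member that fell (-0.54). Of 24 genes of the unfolded protein response and ER degradation 19 rose and 3 fell. SEL1L, an adaptor of the degradation complex, stood at 40.6, 43.6 and 39.7 FPKM in shNRF2 and at 14.6, 16 and 14.7 FPKM in shGFP. OS9, a lectin of that complex, and MBTPS2, the protease that cuts ATF6 and the sterol factors, rose by 1.23 and 1.26 on the log2 scale. DERL1, a membrane protein of that pathway, fell by 0.40.

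Transport from the ER to the Golgi had 29 of 42 genes higher and 9 lower. TMED2, a cargo receptor, stood at 195, 205 and 202 FPKM in shNRF2 and at 59.3, 57.8 and 55.2 FPKM in shGFP, and the Golgi matrix protein GOLGA2 at 33.9, 36.1 and 34.4 FPKM in shNRF2 and 8.73, 8.75 and 9.5 FPKM in shGFP. SRPR, the receptor that docks ribosomes at the ER, fell by 1.15. The median of this list was only 0.16, although the levels summed to 3752 to 3856 FPKM in shNRF2, against 2989 to 3069.9 FPKM in shGFP.

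Lysosomal enzymes rose as well. Of 47 tested genes 41 rose, 13 of them at least 2 fold, and 3 fell (median 0.62), where 6.29% of all genes rose at least 2 fold. SMPD1, acid sphingomyelinase, stood at 52.6, 49.5 and 49.1 FPKM in the shNRF2 libraries, against 8.76, 8.13 and 7.84 FPKM in the shGFP libraries. ARSB, a sulfatase, stood at 18.2, 19.3 and 19.4 FPKM in shNRF2 and at 3.81, 3.76 and 3.34 FPKM in shGFP. IDUA, which degrades glycosaminoglycans, and CTSO, a cathepsin, rose by 1.98 and 1.8 on the log2 scale. GLA, alpha-galactosidase, went down, with 55.6, 57.2 and 56.6 FPKM in shNRF2 and 155, 142 and 147 FPKM in shGFP. The proton pump that acidifies lysosomes was split, with 7 of 17 genes higher and 8 lower, or 8 higher and 5 lower when the libraries were rescaled to a common sum of FPKM. ATP6AP1, an accessory subunit, had 1.06 and ATP6V0C, a membrane subunit, -0.41.

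Of 39 autophagy genes 25 rose and 8 fell. WIPI1, which binds the membrane of forming autophagosomes, stood at 35.8, 35 and 33.5 FPKM in shNRF2 and at 9.04, 9.46 and 7.87 FPKM in shGFP. GABARAPL1, a protein conjugated to that membrane, stood at 104, 109 and 101 FPKM in shNRF2 and at 30.8, 32.4 and 34.1 FPKM in shGFP, and its relative MAP1LC3A rose by 1.7 on the log2 scale. BNIP3, a receptor for mitochondria, fell by 0.83.

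**Figure D2:**
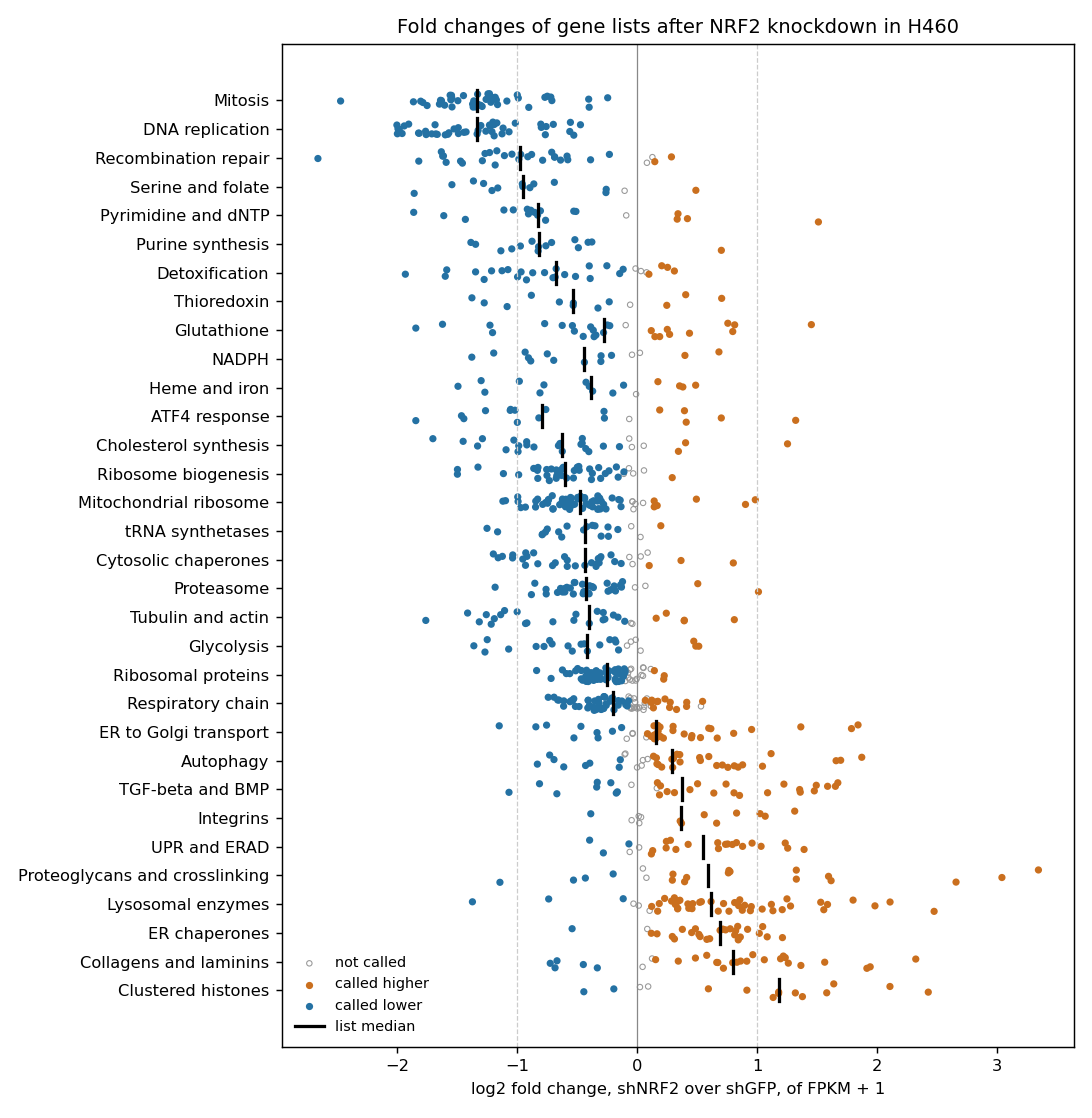
Log2 fold change (shNRF2 over shGFP, of FPKM + 1) of each tested member of the gene lists named on the axis, 1 point a gene, filled where called, with a bar at the list median and dashed lines at 2 fold. The DNA replication and mitosis lists lie wholly below 0, with medians of -1.33 and -1.34, and the lists of ER chaperones, lysosomal enzymes and clustered histones lie mostly above 0, with medians of 0.69, 0.62 and 1.18.

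Most genes of sterol and sugar metabolism fell. Of 27 cholesterol synthesis genes 21 fell, 6 of them at least 2 fold, and 3 rose (median -0.62). ACAT2, which makes acetoacetyl-CoA for the pathway, stood at 14.3, 15.6 and 15.5 FPKM in shNRF2 and at 53.2, 49.6 and 51.7 FPKM in shGFP. INSIG1, the sterol sensor partner that is itself induced by the sterol factors, stood at 15, 15.4 and 14.2 FPKM in shNRF2 and at 42.9, 43.4 and 40.6 FPKM in shGFP. TM7SF2, a sterol reductase, rose by 1.25 on the log2 scale. SCD, the stearoyl-CoA desaturase, stood at 128, 127 and 122 FPKM in shNRF2 and at 306, 308 and 302 FPKM in shGFP, whereas the list of 23 fatty acid genes was mixed, with 7 higher and 9 lower, or 12 higher and 9 lower when the libraries were rescaled to a common sum of FPKM.

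Of 25 glycolysis genes 18 fell and 3 rose. HK2, a hexokinase, had 4.73, 4.04 and 4.4 FPKM in shNRF2 and 11.3, 12 and 12.1 FPKM in shGFP, and PGAM1, phosphoglycerate mutase, fell by 1.27. PDK4, which shuts off pyruvate dehydrogenase, rose, with 65.7, 71.2 and 68.2 FPKM in the shNRF2 libraries, against 16.8, 16.5 and 16.7 FPKM in the shGFP libraries (1.97 ± 0.0392 SE, limma, Benjamini-Hochberg adjusted p = 4.64e-14), and PDK2 rose by 1.1 on the log2 scale. Of 32 genes of the citrate cycle and its entry 21 fell and 6 rose, and of 76 respiratory chain genes 45 fell and 13 rose, none by 2 fold. CA9, a carbonic anhydrase induced by hypoxia, fell by 2.12, but the 26 hypoxia genes were even, with 11 higher and 11 lower, or 13 higher and 8 lower when rescaled to a common sum of FPKM.

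Genes for the extracellular matrix rose. Of 29 collagens, laminins and other matrix proteins 22 rose, 10 of them at least 2 fold, and 5 fell (median 0.80). COL5A1, a chain of fibrillar collagen, stood at 9.55, 8.99 and 8.95 FPKM in shNRF2 and at 0.903, 0.973 and 1.23 FPKM in shGFP. COL4A5, a basement membrane chain, stood at 167, 173 and 161 FPKM in shNRF2 and at 41.2, 43.7 and 43.1 FPKM in shGFP, while COL4A1, of the same family, fell by 0.72. FBN2 and FBN1, the fibrillins, rose by 1.92 and 1.56 on the log2 scale. Of 20 proteoglycans and crosslinking enzymes 14 rose, 7 of them at least 2 fold, and 4 fell. SDC2, a cell surface heparan sulfate proteoglycan, stood at 84.1, 88.8 and 88.2 FPKM in shNRF2 and at 7.92, 7.54 and 7.52 FPKM in shGFP, while SDC4, its relative, fell by 1.14. PLOD1, a collagen hydroxylase, rose by 1.62 on the log2 scale.

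Markers of fibroblasts, listed as a check on other cells, did not all move together, with 3 of the 4 tested higher and 1 lower. Their 6 markers summed to 38.9 to 41.0 FPKM in the shNRF2 libraries, against 17.2 to 17.7 FPKM in the shGFP libraries. DCN, decorin, stood at 9.75, 11.1 and 10.2 FPKM in shNRF2 and at 0.929, 0.866 and 0.603 FPKM in shGFP, LUM, lumican, rose by 1.33 and PDGFRB by 0.64. COL3A1 fell by 0.68, and the defining chains COL1A1 and COL1A2 were under 1 FPKM in all 6 libraries. Of the endothelial markers KDR stood at 3.61, 3.57 and 3.25 FPKM in shNRF2 and at 0.88, 0.79 and 0.789 FPKM in shGFP, and the other 3 were under 1 FPKM in all 6, CDH5 being listed at 0. DCN and KDR met the minimum only in the shNRF2 libraries, so that they had to differ. The part of fibroblast and endothelial markers in the result was not tested. Immune markers summed to 28.4 to 31.9 FPKM in shNRF2 and 29.2 to 33.1 FPKM in shGFP, and 4 of the 6 were under 1 FPKM in all libraries. The keratins KRT8, KRT18 and KRT19 were abundant, EPCAM was under 1 FPKM and CDH1, the defining epithelial cadherin, was at or near 0. All 4 lung lineage markers were at or near 0. A lower number of cells of a type and less RNA per cell cannot be told apart in bulk RNA.

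Of 13 integrins 8 rose and 1 fell, led by ITGB5, with 329, 314 and 306 FPKM in shNRF2 and 121, 125 and 134 FPKM in shGFP. Secreted and membrane proteases and their inhibitors had 16 of 25 genes higher and 7 lower. FURIN, the convertase that cuts proproteins in the Golgi, had the largest rise of all genes that met the naming rule, with 287, 269.6 and 265 FPKM in shNRF2 and 22, 22.2 and 26.2 FPKM in shGFP (3.49 ± 0.0562 SE, limma, Benjamini-Hochberg adjusted p = 7.87e-15). MMP15, a membrane matrix protease, stood at 18.5, 18.1 and 17.5 FPKM in shNRF2 and at 2.48, 2.58 and 3.07 FPKM in shGFP. PLAU, urokinase, went down, with 16, 15.7 and 15.2 FPKM in shNRF2 and 58.3, 60.1 and 61.2 FPKM in shGFP. PLAT, the tissue plasminogen activator, rose by 1.35 on the log2 scale.

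Of 30 genes of the transforming growth factor beta and bone morphogenetic protein pathways 20 rose and 8 fell. BMPR2, a receptor, and LTBP1, which holds the latent ligand, rose by 1.65 and 1.49 on the log2 scale, and TGFB1, a ligand, fell by 0.81. ID2, a target and inhibitor of basic helix-loop-helix factors, stood at 71.5, 69.3 and 75.8 FPKM in shNRF2 and at 24.4, 22.8 and 22.9 FPKM in shGFP. BAMBI, a decoy receptor, stood at 10.8, 10.2 and 10.4 FPKM in shNRF2 and at 2.87, 2.58 and 2.36 FPKM in shGFP. In the Notch pathway 11 of 21 genes rose and 5 fell, among them proteases that process Notch. NCSTN, a gamma-secretase subunit, stood at 209, 208 and 196 FPKM in shNRF2 and at 48.8, 51.7 and 50.4 FPKM in shGFP, and ADAM10, which makes the first cut, at 48, 50.8 and 49.8 FPKM in shNRF2 and 17.4, 18 and 16.6 FPKM in shGFP. NOTCH3 itself fell by 0.95.

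In the epidermal growth factor system a ligand and its receptor moved apart. EPGN, the ligand epigen, stood at 16.8, 16.6 and 16.7 FPKM in the shNRF2 libraries, against 97.4, 92.3 and 90.2 FPKM in the shGFP libraries. EGFR stood at 20.9, 20.6 and 18.8 FPKM in shNRF2 and at 4.55, 5.5 and 4.43 FPKM in shGFP, and ERBB2 rose by 0.81 on the log2 scale. Of the 11 tested genes 6 rose and 4 fell, and ERRFI1, an inhibitor of EGFR, was among those that fell (-0.12) but was not called after rescaling to a common sum of FPKM (-0.03). The feedback genes of the MAP kinase pathway were split, with 11 of 24 higher and 11 lower. ETV1, a transcription factor of the pathway, stood at 51.7, 55 and 53.2 FPKM in shNRF2 and at 16.3, 16.6 and 15.8 FPKM in shGFP, and the phosphatases DUSP10 and DUSP6 rose by 1.19 and 1.08 on the log2 scale. FOSL1, an AP-1 subunit, went down, with 5.97, 5.6 and 5.76 FPKM in shNRF2 and 23.3, 24.6 and 27.3 FPKM in shGFP, and the phosphatase DUSP5 had -1.67.

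The 18 cytokine genes tested were split evenly, with 8 higher and 8 lower, and several chemokines were among the lower ones. IL8 stood at 73.6, 71.9 and 75.4 FPKM in shNRF2 and at 290.0, 274 and 254 FPKM in shGFP, CXCL2 at 1.42, 1.76 and 1.68 FPKM in shNRF2 and 9.0, 9.8 and 8.18 FPKM in shGFP, and CXCL5 and CXCL1 fell by 1.29 and 1.24. The chemokine CXCL16 and the growth factor VEGFC rose by 0.81 and 0.67 on the log2 scale. TNFAIP3, an inhibitor of NF-kB, stood at 118, 116 and 112 FPKM in shNRF2 and at 51, 53.6 and 52.9 FPKM in shGFP, and of 13 NF-kB genes 5 rose and 3 fell. Of 31 interferon-stimulated genes 18 rose and 7 fell. HLA-B, which presents antigen, had 52, 48.7 and 47.7 FPKM in shNRF2 and 19.9, 19.9 and 21.7 FPKM in shGFP, and HLA-C rose by 1.05 on the log2 scale, with reads that may be shared between related genes. OAS1, a sensor of double-stranded RNA, rose by 0.95 while its relative OAS3 fell by 0.94.

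Genes of cell death moved in both directions. PMAIP1, the BH3-only protein NOXA, stood at 3.9, 3.55 and 3.71 FPKM in shNRF2 and at 18.3, 19.1 and 17.2 FPKM in shGFP. MCL1, the survival protein that NOXA binds, had 93, 94.8 and 92.1 FPKM in shNRF2 and 192, 190.4 and 182 FPKM in shGFP, and BCL2L2, another survival protein, 17.3, 18.2 and 17.4 FPKM in shNRF2 and 4.49, 4.38 and 4.41 FPKM in shGFP. Of 16 genes of the family 4 rose and 8 fell. Of 32 p53 targets 10 rose and 16 fell, so that CDKN1A and TP53I3 (1.03), a quinone oxidoreductase, rose while SFN (-1.2), a checkpoint adaptor, and BTG2 (-1.03), an inhibitor of growth, fell.

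Genes of cell identity moved in both directions. Of 17 tested epithelial genes 9 rose and 7 fell. KRT18 stood at 279.7, 288 and 285 FPKM in shNRF2 and at 577, 592 and 654 FPKM in shGFP, KRT80 fell by 1.64, and the desmosome cadherins DSG2 and DSC2 rose by 1.5 and 1.27 on the log2 scale. Of 19 mesenchymal genes 12 rose and 5 fell. CDH11, a mesenchymal cadherin, stood at 765, 777 and 758 FPKM in shNRF2 and at 242, 257 and 248 FPKM in shGFP, and NT5E, the surface nucleotidase CD73, at 53.6, 55.4 and 53.5 FPKM in shNRF2 and 15.2, 13.7 and 13.8 FPKM in shGFP. Of 20 genes of neuroendocrine secretion 12 rose and 7 fell. VGF, a granin, stood at 2.88, 3.2 and 3.31 FPKM in shNRF2 and at 43.9, 40.8 and 42.3 FPKM in shGFP, while NCAM1, a neural adhesion protein, had 19.1, 19.4 and 17.5 FPKM in shNRF2 and 5.11, 5.68 and 5.31 FPKM in shGFP. Most nuclear receptors rose. Of 27 genes 18 rose and 6 fell, NR0B1 among the 6, with NR4A2, an orphan receptor, at 30.5, 31.4 and 29 FPKM in shNRF2 and 10.1, 11.3 and 9.6 FPKM in shGFP, NR1D2, a receptor of the circadian clock, at 1.4, and the fat cell receptor PPARG at -0.94.

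The largest changes by the naming rule (libraries that do not overlap, and at least 5 FPKM in the higher group) included genes of none of these lists. PCDH20, a protocadherin, stood at 45.7, 47.9 and 46.2 FPKM in shNRF2 and at 3.86, 4.0 and 4.16 FPKM in shGFP. FMOD, the collagen-binding proteoglycan fibromodulin, stood at 11.4, 10.4 and 9.91 FPKM in shNRF2 and at 0.432, 0.469 and 0.312 FPKM in shGFP, and OLFML2A, a secreted matrix protein, at 375, 369 and 354 FPKM in shNRF2 and 44.9, 44.6 and 45.8 FPKM in shGFP. SLC9A3, a sodium and proton exchanger, HR, a corepressor of nuclear receptors, and VIT, a matrix protein, rose by 2.83, 2.78 and 2.74 on the log2 scale. ST6GALNAC2, a sialyltransferase, CEND1 and FAM168A had 2.65, 2.56 and 2.54. Of these rises, FMOD and CEND1 met the minimum only in the shNRF2 libraries, so that they had to differ. The largest fall was that of PTX3, a secreted pentraxin of innate immunity, with 0.687, 0.455 and 0.448 FPKM in shNRF2 and 19.6, 17.5 and 16.4 FPKM in shGFP. CALB2, the calcium-binding protein calretinin, stood at 0.216, 0.0799 and 0.118 FPKM in shNRF2 and at 6.12, 6.37 and 7.68 FPKM in shGFP. PTX3 and CALB2 met the minimum only in the shGFP libraries, so that they too had to differ. CPLX2, a protein of vesicle release, and RMI2, a partner of the BLM helicase, had -2.63 and -2.52, and the small nucleolar RNA SNORD17 had -2.43. PPIF, cyclophilin D of mitochondria, stood at 22.9, 24.5 and 24.2 FPKM in shNRF2 and at 128, 127 and 131 FPKM in shGFP. LBR, a nuclear envelope protein with sterol reductase activity, and PGRMC1, a heme-binding protein, fell by 2.36 and 2.31.

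**Figure D3:**
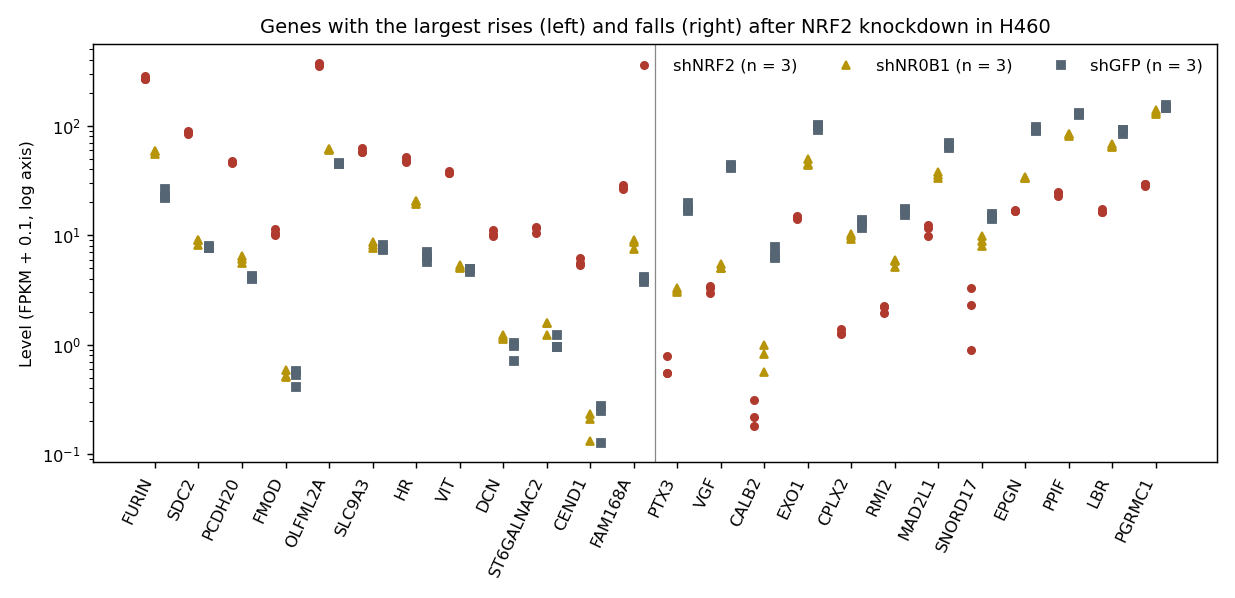
Level of the 12 genes with the largest rise and the 12 with the largest fall, as FPKM + 0.1 on a log axis, in the shNRF2 (circles), shNR0B1 (triangles) and shGFP (squares) libraries of H460, 3 each. The rule that picked these 24 genes required shNRF2 and shGFP libraries that do not overlap, so the circles lie apart from the squares by selection. For SDC2, FMOD and SLC9A3 the shNR0B1 triangles lie next to the squares, and for VGF they lie nearer to the circles.

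The same knockdown was compared with that in H2122 by a test of the difference itself (H460 change minus H2122 change, an interaction term in limma over the 12 libraries of both lines). Line and time of knockdown, 72 h in H460 and 24 h in H2122, cannot be told apart in this comparison. Of 12798 genes tested, the change was higher in H460 for 4386 (34.3%) and lower for 4782 (37.4%). Among the 11649 genes of H460, 7843 were called in both lines, with 3345 higher in both and 3139 lower in both. Another 584 rose in H460 and fell in H2122, and 775 fell in H460 and rose in H2122.

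Most detoxification genes had a higher change in H460 than in H2122, and the other redox lists were more mixed. GCLM changed by -1.21 in H460 and by -2.78 in H2122, a difference of 1.58 ± 0.0703 (SE, limma interaction, Benjamini-Hochberg adjusted p = 6.25e-10). HMOX1 changed by -1.49 in H460 and by -2.7 in H2122, and FTL by -1.27 in H460 and by -2.76 in H2122. NQO1, which rose in H460, fell in H2122, with 0.31 in H460 and -0.88 in H2122 (difference 1.19, limma interaction, Benjamini-Hochberg adjusted p = 1.08e-11). Of the 30 detoxification genes the change was higher in H460 for 21 and lower for 7. It was higher in H460 for 12 and lower for 7 of 27 glutathione genes, and higher for 8 and lower for 5 of 15 NADPH genes. Of 13 thioredoxin genes it was higher in H460 for 8 and lower for 3, although the medians were -0.53 in both lines. AKR1C2 was among the genes lower in H460, with -1.6 in H460 and -0.42 in H2122, as was IDH2, with -1.38 in H460 and -0.46 in H2122. ABCG2 had -1.93 in H460 and -2.03 in H2122, and the test did not separate them (difference 0.10 ± 0.0714 SE, limma interaction, Benjamini-Hochberg adjusted p = 0.24). The transcript of NRF2 itself fell less, with -0.67 in H460 and -1.11 in H2122.

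The medians of the proliferation lists lay close together, but single genes were called in both directions. DNA replication genes had a median of -1.33 in H460 and -1.39 in H2122, and the change was lower in H460 for 15 of the 47 and higher for 10. Of the 46 mitosis genes it was higher in H460 for 28 and lower for 4. RRM2 had -1.86 in H460 and -1.96 in H2122, and TYMS -1.61 in H460 and -1.68 in H2122, and neither difference was called. Ribosome biogenesis fell less in H460, with medians of -0.60 in H460 and -1.3 in H2122, and 36 of 42 genes were called higher in H460. Of the cytosolic ribosomal protein genes 70 of 76 were called higher in H460, against 34.3% of all genes.

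For ER chaperones and matrix genes the change was more often higher than lower in H460. The lists of the unfolded protein response, ER to Golgi transport and lysosomal enzymes had medians above 0 in both lines. N-glycosylation genes had a median of 0.19 in H460 and -0.16 in H2122, with 24 of 39 called higher and 6 lower in H460. ER chaperones had a median of 0.69 in H460 and -0.15 in H2122, and 21 of 27 were called higher in H460. HSPA5 changed by 1.08 in H460 and by -0.26 in H2122 (difference 1.34 ± 0.0356 SE, limma interaction, Benjamini-Hochberg adjusted p = 6.41e-12). Matrix genes had a median of 0.80 in H460 and 0.06 in H2122, with 18 of 29 called higher and 7 lower in H460 and COL5A1 at 2.32 in H460 and 0.01 in H2122. List members had to reach the minimum in H460 only, and a gene at or near 0 FPKM in H2122 has a change near 0 there. The collagen COL2A1, for example, had a mean of 22.4 FPKM in H460 shNRF2 but 0.0186 FPKM in H2122 shNRF2. For such genes the difference between the lines does not compare 2 responses. Genes of the unfolded protein response and ER degradation had a median of 0.55 in H460 and 0.32 in H2122, and those of ER to Golgi transport 0.16 in H460 and 0.08 in H2122. ATF4 had -1.02 in H460 and 0.08 in H2122, and 11 of the 18 genes of its response were called lower in H460. Cholesterol synthesis genes were called lower in H460 in 19 of 27 cases, and interferon response genes in 22 of 31. Lysosomal enzymes rose in H460 with a median of 0.62, beside 0.37 in H2122, and CTSO had 1.8 in H460 and 1.82 in H2122.

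**Figure D4:**
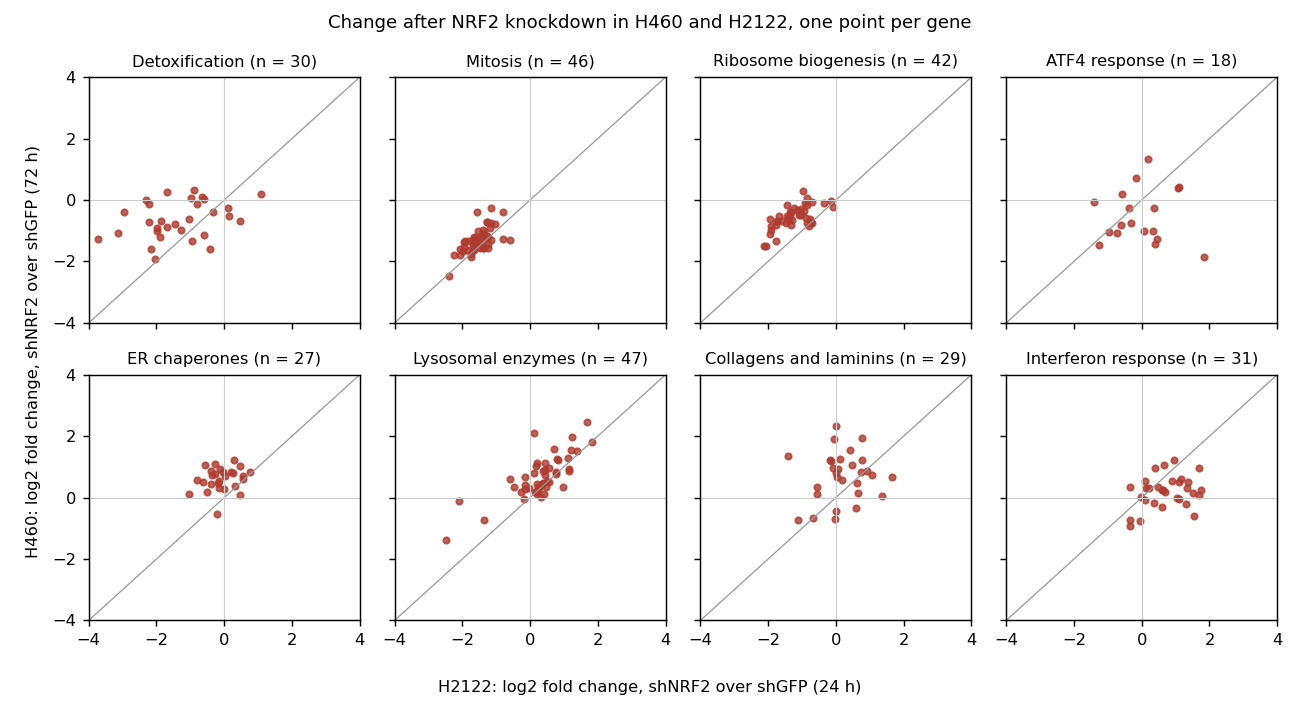
Log2 fold change of NRF2 knockdown in H460 (72 h, vertical axis) against that in H2122 (24 h, horizontal axis) for the tested members of 8 gene lists, 1 point a gene, with the diagonal of equal change. Mitosis genes lie below 0 in both lines (medians -1.34 and -1.5), whereas most ER chaperones lie above 0 in H460 (25 of 27 called higher, 1 lower) and their median in H2122 lies below 0 (medians 0.69 and -0.15).

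Because NR0B1 fell after NRF2 knockdown, to 9.0, 8.82 and 9.35 FPKM in the shNRF2 libraries, beside 19, 18.3 and 17.2 FPKM in the shNR0B1 libraries, shNRF2 was set directly against shNR0B1 in the same fit. Of the 11649 genes 8743 (75.1%) were called, 4509 (38.7%) of them higher and 4234 (36.3%) lower in shNRF2 than in shNR0B1. Against shGFP, 3798 genes (32.6%) were higher and 4385 (37.6%) lower in shNR0B1. The changes of both knockdowns from shGFP share the shGFP libraries, and they are given side by side only.

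Most detoxification and proliferation genes were lower after NRF2 than after NR0B1 knockdown, whereas the glutathione list was divided, with 15 of 27 genes lower and 10 higher. TXNRD1 had 210.2, 210.5 and 216 FPKM in shNRF2 and 426, 409 and 414 FPKM in shNR0B1, a difference of -0.97 ± 0.0273 (SE, limma, Benjamini-Hochberg adjusted p = 9.15e-13). PTGR1 had 64.1, 62.7 and 68.1 FPKM in shNRF2 and 221, 216 and 221 FPKM in shNR0B1. Of 30 detoxification genes 23 were lower in shNRF2 and 3 higher, of 47 DNA replication genes 46 were lower and none higher, and of 46 mitosis genes 44 were lower and 1, CDC25B, was higher. The median changes from shGFP of the DNA replication list were -1.33 for shNRF2 and -0.52 for shNR0B1. NQO1 again stood apart, with 1547, 1590.4 and 1577 FPKM in shNRF2 and 862, 835 and 828 FPKM in shNR0B1. Lysosomal enzymes were higher in shNRF2 in 39 of 47 cases and ER chaperones in 22 of 27. The direct difference was not called for the chemokine CXCL1, with 74.1, 79.5 and 73 FPKM in shNRF2 and 74.6, 78.2 and 69.4 FPKM in shNR0B1 (0.03 ± 0.0501 SE, limma, Benjamini-Hochberg adjusted p = 0.626). Nor was it called for KRT18, with 279.7, 288 and 285 FPKM in shNRF2 and 298, 292 and 295 FPKM in shNR0B1.

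The largest differences from shNR0B1 were partly those already named, such as SDC2 (3.2), FMOD (3.0), PCDH20 (2.78) and SLC9A3 (2.75). FSTL4, a secreted follistatin relative, COL2A1, a cartilage collagen, CLEC3B, a secreted lectin, and PCSK2, a prohormone convertase, had 2.91, 2.77, 2.76 and 2.72. Lower in shNRF2 than in shNR0B1 were CA9, with 1.14, 0.529 and 1.19 FPKM in shNRF2 and 13.2, 11.4 and 14.2 FPKM in shNR0B1, the protease receptor F2RL2 (-2.77), LOC643723 (-2.62) and NDUFA4L2 (-2.44), a mitochondrial protein induced by hypoxia. CPLX2, HHIPL2, CLDN4, a tight junction protein, and PGRMC1 had -2.28, -2.21, -2.18 and -2.17.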

How the data were processed

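RNA was isolated with an RNeasy kit, treated with DNase and made into polyadenylated TruSeq version 2 libraries, per the labels' protocols. The authors deposited a table of FPKM values per gene symbol. The build hg19 and the tools HOMER, Bowtie2, DESeq2, featureCounts and STAR are named per the submitters' processing notes. Their roles, versions, annotation and strand setting were not stated. Reads of overlapping antisense genes may therefore be shared.

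From these values, log2(FPKM + 1) was fitted with limma 3.58.1 (R 4.3.3, trended variance) over the 12 H460 knockdown libraries in 4 groups, with Benjamini-Hochberg adjustment over all 11649 genes and calls at an adjusted p under 0.05. The H2122 comparison used an interaction term over 12 libraries and 12798 genes. Whole reads were recovered from steps in the low values for 100% of 17871 genes (tolerance 0.02 reads), which gave 16709805 to 24613353 reads for the 6 libraries. Summed FPKM was 440622 to 444346 in shNRF2 and 466112 to 478934 in shGFP, so the columns were not scaled to a common sum. On simulated data of 11537 genes, 50 were changed at each of 1.2, 1.5, 2 and 3 fold and the rest were not. The fit found 98% of those changed by 1.5 fold and 20% of those changed by 1.2 fold, and 12 calls (7.02%) were false, above the 5% aimed at. In the real data 80.7% of genes were called, so the adjusted threshold was easier to reach than in the simulation. The simulated shares therefore do not measure how often such changes were found here.

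Genes and lists were chosen with earlier results of these data known, and no list was tested as a set. The rule names the regulators NFE2L2, NR0B1, SNW1 and KEAP1, the 12 largest changes in each direction, up to 6 members of each list (all in lists of 12 or fewer), and 8 genes in each direction for the other comparisons, which for H2122 must not overlap in either line. GCLC, SLC7A11, AKR1C1, GSTP1, ATF4, CCND1 and CDC25B lie outside that rule and were chosen after their values were seen. Alternatives were the pseudocount, the minimum level, depth scaling, variance trend, replicate block, leaving out each library, a smaller fit and voom on the recovered reads. A few list members are not reported here.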

Additional observations from a re-analysis of the deposited data

Results flagged for a closer look

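The response to NRF2 knockdown differed between H460 and H2122 in many genes, by the test of the difference itself (limma interaction, Benjamini-Hochberg adjusted p under 0.05 over 12798 genes). The change was higher in H460 for 4386 genes and lower for 4782. The largest differences among genes whose shNRF2 and shGFP libraries do not overlap in either line, with at least 5 FPKM in the highest group, are given as values only, and line and time of knockdown cannot be told apart in them.

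Of the 8 such genes with the largest positive difference, 6 rose in H460 and fell in H2122. FJX1, a secreted protein, changed by 1.23 in H460 and by -1.86 in H2122 (difference 3.09). SAMD5 changed by 1.6 in H460 and by -1.27 in H2122 (2.87), THBD, thrombomodulin, by 0.81 in H460 and by -1.96 in H2122 (2.77), and COL8A1, a short-chain collagen, by 1.37 in H460 and by -1.4 in H2122 (2.77). CA2, a carbonic anhydrase, had 0.39 in H460 and -2.69 in H2122 (3.08). LPL, lipoprotein lipase, had 0.58 in H460 and -2.47 in H2122 (3.05), at 1.73 to 2.15 FPKM in H460 shNRF2 and 0.777 to 1.16 FPKM in H460 shGFP. CA12, another carbonic anhydrase, fell in both lines, with -0.16 in H460 and -2.88 in H2122 (2.72). OLFML2A rose by 2.99 in H460 and had 0.10 in H2122 (2.89). SDC2, FMOD and SLC9A3 had differences of 3.33, 3.04 and 2.85 but were at or near 0 in H2122, where their libraries overlap.

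Of the 8 such genes with the largest negative difference, RAB37 (-3.68), VSTM2L (-3.45) and STRA6 (-3.03) rose in H2122 and were near 0 in H460, where none reached the minimum. STRA6, a retinol transporter, stood at 58.9, 58.5 and 59.8 FPKM in H2122 shNRF2, against 6.33, 7.33 and 6.83 FPKM in H2122 shGFP. CHAC1 changed by -1.84 in H460 and by 1.83 in H2122 (-3.67), PLAU by -1.87 in H460 and by 1.57 in H2122 (-3.44), and MAFF by -1.04 in H460 and by 2.05 in H2122 (-3.09). PTX3 had -3.62 in H460 and -0.18 in H2122 (-3.45), and VGF had -3.39 in H460 and -0.16 in H2122 (-3.23).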

How the results depend on the processing

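Counts of called genes stayed within 1.5 times their reported values under every alternative run, with 2 exceptions and the motif share. Genes at least 2 fold higher numbered 1133 with a pseudocount of 0.1 and 1186 with voom on the recovered reads, beside 733 as reported (874 and 905 lower, beside 663); the pseudocount of 1 shrinks low genes by construction. The share of promoters with the motif was 6.25% with an A required after the core, beside 20.3%. Leaving out each library in turn gave 4319 to 4794 genes higher and 4299 to 4481 lower than in shGFP, 616 to 768 at least 2 fold higher and 608 to 674 at least 2 fold lower. It gave 4110 to 4436 higher and 4417 to 4770 lower in the H2122 comparison, and 4064 to 4318 higher and 4020 to 4061 lower than in shNR0B1. Rescaling to a common sum of FPKM moved the median of all genes by 0.0837 and gave 5475 genes higher and 3944 lower than in shGFP. Replicate numbers were shared between groups, but same-numbered H460 shNRF2 and shGFP libraries did not deviate together (correlations of -0.0688, 0.0622 and -0.109). In H2122 the correlations were 0.0395, 0.124 and 0.0814. These values do not show whether same-numbered libraries were prepared together. With the number as a replicate block 4817 genes were higher and 4584 lower than in shGFP, 4290 higher and 4710 lower in the H2122 comparison, and 4529 higher and 4233 lower than in shNR0B1. Among single genes 6168 values kept their side of the threshold. Direction was compared only for genes called in the reported fit, and none of these changed sign. A call was gained in 17 values and lost in 10. CD68, ERRFI1, KEAP1 and MLXIP lost theirs under the common sum and FANCF under median-ratio scaling, and the cause was not tested. ERRFI1, FANCF and MLXIP also lost theirs when single libraries were left out. Of the counts over lists 29 moved by more than 1.5 times, 13 of them under the minimum of 5 FPKM, 8 with a single library left out (amino acid transporters, ribosome biogenesis, ribosomal proteins and endothelial markers), 7 under the common sum and 1 under median-ratio scaling. In simulated data modelled on these libraries 20% of 50 genes changed by 1.2 fold were called. Far fewer genes were changed there than the 80.7% called in the real data, which made the adjusted threshold stricter. That share therefore does not measure how often small changes were found here.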

Other observations

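Splicing regulators moved in both directions. Of 19 genes of the SR splicing factor list 8 rose and 11 fell. SRPK1, the kinase that phosphorylates SR proteins in the cytosol, fell by 1.09; the factors SRSF7 and SRSF3 had -0.84 and -0.75. CLK1, a nuclear kinase of the same proteins, rose by 0.81 on the log2 scale. Long noncoding RNAs that host small nucleolar RNAs were among those that fell, such as SNHG12 (-0.78) and SNHG5 (-0.65), and of 18 long noncoding RNAs 3 rose and 12 fell. MIR22HG, a host of a microRNA, rose by 1.05 on the log2 scale and NEAT1, the scaffold of paraspeckles, by 0.48.

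Further surface pathways were covered by lists. Of 21 WNT genes 13 rose and 3 fell, with the receptors FZD1 at 1.17, LRP5 at 0.98 and LGR4 at 0.97. Of 21 genes of the YAP and TEAD pathway 11 rose and 8 fell. CRIM1, a membrane protein that binds bone morphogenetic proteins, and CTGF, a secreted matricellular protein, rose by 1.21 and 1.16 on the log2 scale, and AXL, a receptor kinase, and NUAK2, a kinase, had -1.83 and -1.44. N-glycosylation had 21 of 39 genes higher and 14 lower. DDOST, a subunit of the oligosaccharyltransferase, stood at 348, 336 and 321 FPKM in shNRF2 and at 126, 126 and 138 FPKM in shGFP, and GNPNAT1, which makes the sugar donor, fell by 1.46.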
